A study of Rattus norvegicus with 78 samples.

Results

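The 7 genes described here, Ltf, Lcn2, S100a8, S100a9, Mmp8, Padi4 and Mpo, encode proteins that neutrophils store in granules or cytosol, or that epithelia secrete against microbes. They were chosen by gene symbol, and all 7 were found among the 14506 genes with a symbol of their own on the array. Each was read by 1 probe set, so the rule that took the probe set of highest mean had nothing to choose between. The genes were named with results of these arrays already known. The question was whether Ltf and Lcn2, which epithelia also make, moved with the 5 genes better known from neutrophils.

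The samples were sperm let out of the cauda epididymis of Fischer 344 rats, with 1 array for each of 78 samples in 4 groups. Of these, 20 came from rats given corn oil and 20 from rats given 1,2-dibromo-3-chloropropane (DBCP), a germ cell toxicant, at 5 mg/kg/day for 3 months. The other groups, of 19 samples each, had the same treatments and then a recovery whose duration the labels do not state. In comparisons over time, recovery, the age of the rats and any difference in array handling therefore cannot be told apart. The sperm were pelleted and held briefly in a buffer with ammonium chloride, a lysis step for red cells, and the labels name no sort, so other cells of the epididymis or blood may be in the pellet. The samples are labelled sperm, while the series title names testis. The values were deposited as log2 levels. The array medians lay between 6.55 and 6.75, and any 2 arrays correlated with r between 0.860 and 0.988. The labels call the samples biological replicates and do not say whether any were pooled.

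Neutrophils carry lactoferrin and lipocalin 2 in their secondary granules and myeloperoxidase in their primary granules, while the S100A8/S100A9 pair, calprotectin, fills the cytosol. Lactoferrin, the product of Ltf, and lipocalin 2 both limit iron: the first binds the metal and the second binds the siderophores with which bacteria take it up. Both are also epithelial products, lactoferrin in the male tract among other places and lipocalin 2 where NF-kB is active.

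The genes lie apart in the rat genome, except the neighbours S100a8 (chr2:178464095-178465223) and S100a9 (chr2:178487941-178490622). In the RefSeq table for GRCr8, Ltf spans chr8:119878344-119901189, Mmp8 chr8:13008873-13018729, Lcn2 chr3:36078432-36081851, Padi4 chr5:158324417-158357466 and Mpo chr10:73092124-73102057. Positions of the probes within these genes were not used here. Promoters from RefSeq were matched for 5 of the 7 genes. Those of Ltf and Lcn2, which moved in opposite directions, are shown with those of 2 neutrophil genes. Each is given 5′ to 3′ up to the gene's annotated start, as far as it lay outside the gene record, with motif matches in capitals.
Ltf (chr8:119878094-119878343, plus strand): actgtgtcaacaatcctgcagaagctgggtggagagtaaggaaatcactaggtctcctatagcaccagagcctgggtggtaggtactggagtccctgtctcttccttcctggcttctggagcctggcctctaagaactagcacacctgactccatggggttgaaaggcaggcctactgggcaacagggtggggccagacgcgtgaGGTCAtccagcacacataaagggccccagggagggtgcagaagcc
Lcn2 (chr3:36081852-36082030, minus strand): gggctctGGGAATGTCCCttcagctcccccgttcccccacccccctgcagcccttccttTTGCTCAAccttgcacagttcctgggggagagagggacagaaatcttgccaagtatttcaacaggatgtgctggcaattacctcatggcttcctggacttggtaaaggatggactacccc
S100a9 (chr2:178490623-178490872, minus strand): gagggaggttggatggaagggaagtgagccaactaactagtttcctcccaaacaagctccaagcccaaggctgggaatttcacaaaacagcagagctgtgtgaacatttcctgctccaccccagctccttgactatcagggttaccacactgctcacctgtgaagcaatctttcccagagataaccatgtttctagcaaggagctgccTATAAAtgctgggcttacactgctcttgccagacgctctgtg
Mmp8 (chr8:13008640-13008872, plus strand): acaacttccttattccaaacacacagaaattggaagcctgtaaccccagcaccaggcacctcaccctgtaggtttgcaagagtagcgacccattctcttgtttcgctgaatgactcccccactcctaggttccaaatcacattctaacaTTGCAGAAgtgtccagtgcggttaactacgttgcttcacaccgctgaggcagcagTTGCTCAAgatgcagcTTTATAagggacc
Short motifs, chosen after the sequences had been seen, were searched on both strands in 250-base windows before the starts of 33469 promoters. The C/EBP pattern TTGCNNAA, named for factors of granulocyte genes, stood once in Lcn2 and at 2 places in Mmp8, and in 9.22% of all promoters. The NF-kB pattern, the first capitals in Lcn2, stood there as overlapping matches on the 2 strands, and in 16.4% of all promoters. The core GGTCA of nuclear receptor sites stood near the start in Ltf and in 35.4% of all promoters. The cAMP response element TGACGTCA was in none of the 5 windows searched and in 1.59% of all promoters. The TATA box pattern TATAAA stood in S100a9 and, on the opposite strand and so read as TTTATA, in Mmp8. On either strand it stood in 12.9% of all promoters. These matches describe letters in a window and not bound sites.

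Of the 5 neutrophil genes 3 had low levels for this array, and Padi4 and Mpo lay near its middle. S100a8 and S100a9 lay below the array's own median on 78 of 78 arrays, and Mmp8 did so on 75. Padi4, an enzyme that turns arginine in histones to citrulline, lay below it on 30 arrays and Mpo on 36. Ltf and Lcn2 lay above it on every one of the 78. A level read by a probe set depends on its probes as well as on the transcript, so these places say where each gene sat on the arrays and not how much of each RNA there was. No detection call was used here, and a change in a transcript below background would not show at these levels.

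**Figure D1:**
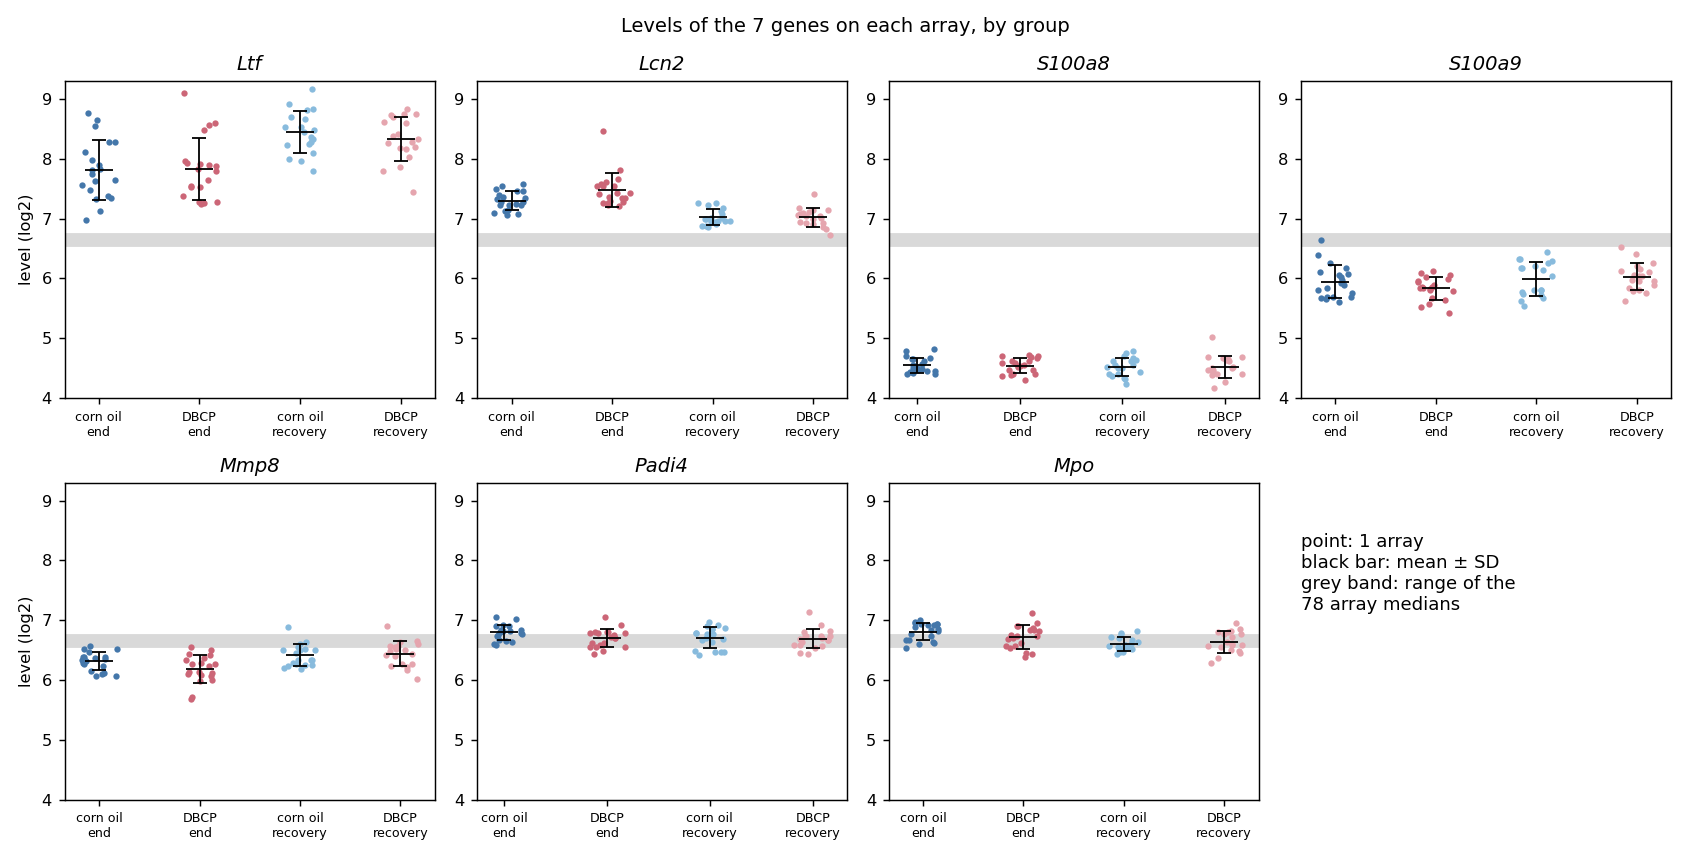
Log2 level of each of the 7 genes on every array (points, 20, 20, 19 and 19 arrays per group), with the mean and SD of each group in black and the range of the 78 array medians, 6.55 to 6.75, as a grey band. Ltf is higher and Lcn2 lower in both recovery groups, while S100a8 stays between 4.17 and 5.02 on all arrays.

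Ltf rose between the end of exposure and recovery in both treatments. In corn oil rats its lowest, median and highest levels were 6.97, 7.78 and 8.76 at the end of exposure (mean 7.82 ± 0.50, SD, n = 20) and 7.80, 8.45 and 9.16 after recovery (8.44 ± 0.35, n = 19). In DBCP rats they were 7.24, 7.81 and 9.10 at the end of exposure (7.83 ± 0.51, n = 20) and 7.44, 8.33 and 8.83 after recovery (8.33 ± 0.38, n = 19). The groups overlapped, and the arrays with the lowest levels were those taken at the end of exposure. The rise was 0.63 ± 0.14 (log2 difference ± SE, 1.54-fold, limma adjusted p = 0.000621) in corn oil rats, with 18 of 19 recovery arrays above the earlier mean. It was 0.50 ± 0.14 (1.42-fold, limma adjusted p = 0.00791) in DBCP rats, with 17 of 19 above. Between DBCP and corn oil the difference in Ltf was 0.01 ± 0.14 at the end of exposure (limma adjusted p = 0.973) and -0.11 ± 0.14 after recovery (0.983), and neither passed.

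Lcn2 fell over the same interval. In corn oil rats its lowest, median and highest levels were 7.06, 7.28 and 7.58 at the end of exposure (mean 7.30 ± 0.16, SD, n = 20) and 6.86, 6.99 and 7.27 after recovery (7.02 ± 0.13, n = 19). In DBCP rats they were 7.21, 7.42 and 8.46 at the end of exposure (7.48 ± 0.28, n = 20) and 6.72, 7.04 and 7.41 after recovery (7.02 ± 0.15, n = 19). The recovery groups sat low, their ranges overlapping the lower end of the earlier ones, and 1 DBCP array at the end of exposure, replicate 13, stood far above the rest. The fall was by -0.28 ± 0.06 in corn oil rats (a ratio of 0.826, limma adjusted p = 0.000595) and by -0.46 ± 0.06 in DBCP rats (0.726, limma adjusted p = 9.3e-08), with 19 of 19 recovery arrays below the earlier mean in each. The fits of both treatments without any single array kept the call, with falls of -0.29 to -0.26 and of -0.48 to -0.41.

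At the end of exposure Lcn2 was 0.18 ± 0.06 higher with DBCP than with corn oil, with 14 of 20 DBCP arrays above the corn oil mean. That difference did not pass (unadjusted p = 0.00323, limma adjusted p = 0.195). It was 0.11 without the 6 arrays to which limma gave a weight under 0.5, which include replicate 13. After recovery the difference was 0.00 ± 0.06, with both means at 7.02. The falls of Lcn2 in DBCP and corn oil rats differed by -0.19 ± 0.09, an interaction that did not pass either (unadjusted p = 0.0352, limma adjusted p = 0.454).

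The calprotectin genes did not pass in any comparison. S100a8 had lowest, median and highest levels of 4.39, 4.50 and 4.82 in corn oil rats and 4.31, 4.55 and 4.72 in DBCP rats at the end of exposure. After recovery they were 4.24, 4.53 and 4.79, and 4.17, 4.50 and 5.02. The medians lay close together, with the widest spread in DBCP rats after recovery, and its time differences were -0.03 ± 0.05 and -0.02 ± 0.05 (limma adjusted p = 0.718 and 0.877). For S100a9 the levels were 5.61, 5.91 and 6.64, and 5.43, 5.85 and 6.12, at the end of exposure. After recovery they were 5.54, 6.04 and 6.44, and 5.62, 6.04 and 6.52. The medians after recovery were a little higher within overlapping ranges, with a time difference of 0.05 ± 0.08 in corn oil rats and 0.19 ± 0.08 in DBCP rats (limma adjusted p = 0.691 and 0.0932).

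Mmp8, the collagenase of neutrophils, rose over time in DBCP rats, and its difference in corn oil rats did not pass. Its lowest, median and highest levels were 5.69, 6.19 and 6.56 in DBCP rats at the end of exposure and 6.02, 6.48 and 6.91 after recovery. In corn oil rats they were 6.07, 6.34 and 6.57, then 6.19, 6.34 and 6.88. The lowest level of all was on a DBCP array of the earlier time, with overlap between all groups. The time difference was 0.26 ± 0.06 in DBCP rats (limma adjusted p = 0.00242, 17 of 19 arrays above the earlier mean) and 0.10 ± 0.06 in corn oil rats (0.242). The interaction did not pass (0.16 ± 0.09, limma adjusted p = 0.467), so a difference between the treatments was not shown.

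Mpo, the peroxidase that makes hypochlorous acid, fell in corn oil rats. Its lowest, median and highest levels there were 6.54, 6.84 and 7.00 at the end of exposure and 6.43, 6.59 and 6.83 after recovery. In DBCP rats they were 6.38, 6.74 and 7.12, then 6.28, 6.61 and 6.95. Both pairs of groups overlapped over most of their range. The time difference was -0.20 ± 0.05 in corn oil rats (limma adjusted p = 0.00282, 18 of 19 arrays below the earlier mean) and -0.08 ± 0.05 in DBCP rats (0.303), with an interaction of 0.12 ± 0.07 that did not pass (0.482). Padi4 ran from 6.59 to 7.06, 6.44 to 7.05, 6.43 to 6.98 and 6.44 to 7.13 in corn oil and DBCP rats at the end of exposure and then after recovery. Its time differences were -0.09 ± 0.05 and -0.01 ± 0.05 (limma adjusted p = 0.197 and 0.941).

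Counted together, 3 of the 7 genes passed over time in corn oil rats, 1 up (Ltf) and 2 down (Lcn2, Mpo), where 24.3% of all 29214 probe sets passed, 11.5% up and 12.8% down. In DBCP rats 3 passed, 2 up (Ltf, Mmp8) and 1 down (Lcn2), where 13.5% of probe sets passed, 7.28% up and 6.19% down. Between DBCP and corn oil 0 of 7 passed in limma's test at the end of exposure and 0 of 7 after recovery, as did 0% of probe sets in each. At an unadjusted p under 0.05 the counts were 2 (Lcn2 and Mmp8, against 11.6% of probe sets) and 0 (against 3.71%). The interaction called 0 of 7 genes and 0% of probe sets, with Lcn2 alone under an unadjusted p of 0.05, against 10.9% of probe sets. The comparisons share groups, the corn oil rats at the end of exposure for instance, so they are not independent of each other.

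**Figure D2:**
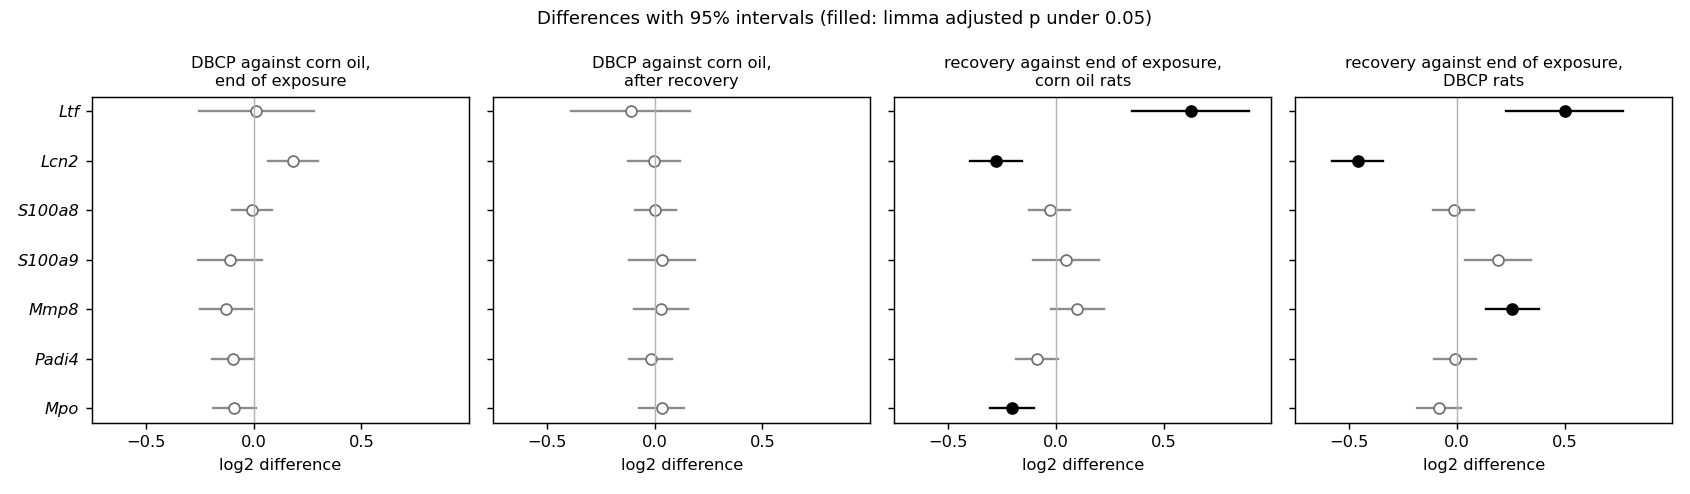
Log2 difference of each gene in 4 comparisons (points) with its 95% interval (normal, from the SE), filled where the limma adjusted p was under 0.05 over 29214 probe sets. Ltf lies to the right of 0 and Lcn2 to the left in both comparisons over time, and no point is filled in the comparisons of DBCP with corn oil.

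The size of the changes over time differed between the arrays numbered 1 to 10 and those numbered 11 to 20, 2 runs of replicate numbers that the labels do not explain. In the first the rise of Ltf in corn oil rats was 0.95 (limma adjusted p = 8.2e-05) and in the second 0.29 (0.413). The mean of Ltf at the end of exposure was 7.56 ± 0.39 (SD, n = 10) on the corn oil arrays numbered 1 to 10 and 8.07 ± 0.48 (n = 10) on the others, whereas after recovery it was 8.51 ± 0.34 (n = 10) and 8.37 ± 0.37 (n = 9). In DBCP rats the rise was 0.63 (0.00637) and 0.39 (0.412). The fall of Lcn2 in corn oil rats was by -0.39 (0.000104) and by -0.16 (0.384), and that in DBCP rats by -0.45 (3.72e-05) and by -0.47 (0.0122). Lcn2 in DBCP rats was thus the one call of the 6 that passed in each run taken alone. Mpo in corn oil rats differed by -0.24 (0.0175) and -0.16 (0.243), and Mmp8 in DBCP rats by 0.22 (0.109) and 0.29 (0.0657). Every one of these 6 differences kept its sign in both runs.

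Whether Ltf and Lcn2 moved by the same amount as the neutrophil genes was tested on the difference between both genes within each array, by permutation of arrays between the groups, over 40 tests (2 genes, 5 neutrophil genes, 4 comparisons). Of these 22 passed after Benjamini-Hochberg adjustment over the 40. The 5 tests of one gene in one comparison share that gene's values, so they are not 5 separate results. S100a8 and S100a9 lay below the array median on all 78 arrays and Mmp8 on 75. Where so low a signal cannot follow its transcript, a pass against it restates the change of Ltf or Lcn2 alone. Passes against these genes therefore cannot decide whether the transcripts moved apart. Padi4 and Mpo lay near the middle of the array. In corn oil rats over time Ltf rose more than all 5, by 0.53 ± 0.16 (difference of log2 differences ± SE) beyond Mmp8 (permutation test, adjusted p = 0.00584) up to 0.83 ± 0.15 beyond Mpo (8e-05). In DBCP rats it rose more than S100a8 (0.52 ± 0.17), Padi4 (0.51 ± 0.17) and Mpo (0.58 ± 0.17), with permutation adjusted p-values of 0.0104, 0.0104 and 0.00584. Beyond S100a9 it rose by 0.31 ± 0.18 and beyond Mmp8 by 0.25 ± 0.17, which did not pass (0.151 and 0.283).

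Lcn2 fell against 4 of the 5 in corn oil rats, by -0.19 ± 0.07 against Padi4 (permutation test, adjusted p = 0.0248) to -0.38 ± 0.08 against Mmp8 (0.0002). Against Mpo, which fell as well, the difference of -0.07 ± 0.06 did not pass (0.339). In DBCP rats it fell against all 5, by -0.38 ± 0.10 against Mpo (0.00191) to -0.72 ± 0.11 against Mmp8 (8e-05, from the smallest p that 100000 permutations can give). At the end of exposure the DBCP difference in Lcn2 exceeded that of all 5, by 0.19 ± 0.09 for S100a8 (0.0456) to 0.31 ± 0.11 for Mmp8 (0.0105). Without the 6 arrays of low weight these last 5 differences were 0.12 to 0.20, and 3 passed. Under quantile normalization the difference for S100a8 was 0.12 and did not pass (permutation test, adjusted p = 0.174). The others passed there, at 0.23 (S100a9) to 0.25 (Mmp8). The DBCP difference in Lcn2 itself did not pass in limma's test (adjusted p = 0.195). With fewer arrays in each run of replicate numbers 0 of 5 passed, at 0.10 to 0.26 on arrays 1 to 10 and 0.28 to 0.44 on arrays 11 to 20. After recovery, and for Ltf at the end of exposure, no such test between DBCP and corn oil passed. On arrays 1 to 10 alone 15 of the 40 tests passed, and on arrays 11 to 20 alone 3, all of them of Lcn2 over time in DBCP rats.

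From array to array within groups few of the 7 genes varied together. Levels were taken as deviations from the group mean over 78 arrays, and of the 21 pairs 1 passed, Padi4 with Mpo (Pearson r = 0.342, permutation test adjusted p = 0.0491). Its Spearman rho of 0.286 did not pass (0.195), and r was 0.277 without the 2 arrays farthest from the median of Padi4, 0.17 on arrays 1 to 10 and 0.481 on arrays 11 to 20. The pair did not pass under quantile normalization, under centring, without the arrays of low weight or in either run of replicate numbers alone. Ltf and Lcn2 gave r = -0.026 and rho = -0.121 (permutation adjusted p = 0.877 and 0.636). Ltf gave r between -0.263 (Mpo) and -0.183 (Mmp8) with the neutrophil genes, all below 0 and none passing. Under quantile normalization these lay between -0.111 (Mpo) and -0.03 (S100a8). Lcn2 gave r between -0.244 (Mmp8) and 0.098 (S100a9), again none passing.

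S100a8 and S100a9, whose proteins form 1 complex, gave r = 0.132 and rho = 0.072 (permutation test, p = 0.259 and 0.542). Mmp8 and S100a9 gave r = 0.291 and rho = 0.269, which did not pass (adjusted p = 0.0826 and 0.195). For this pair r was 0.518 on arrays 1 to 10, where it passed (permutation test adjusted p = 0.0197), and 0.014 on arrays 11 to 20. Taken group by group, this pair was the one of 84 pairs that passed, in DBCP rats after recovery (r = 0.804, permutation test adjusted p = 0.00084 over 84, n = 19). There rho was 0.702 (adjusted p = 0.0865) and r was 0.627 without the 2 farthest arrays. S100a8, S100a9 and Mmp8, with their low levels, enter most of these pairs.

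**Figure D3:**
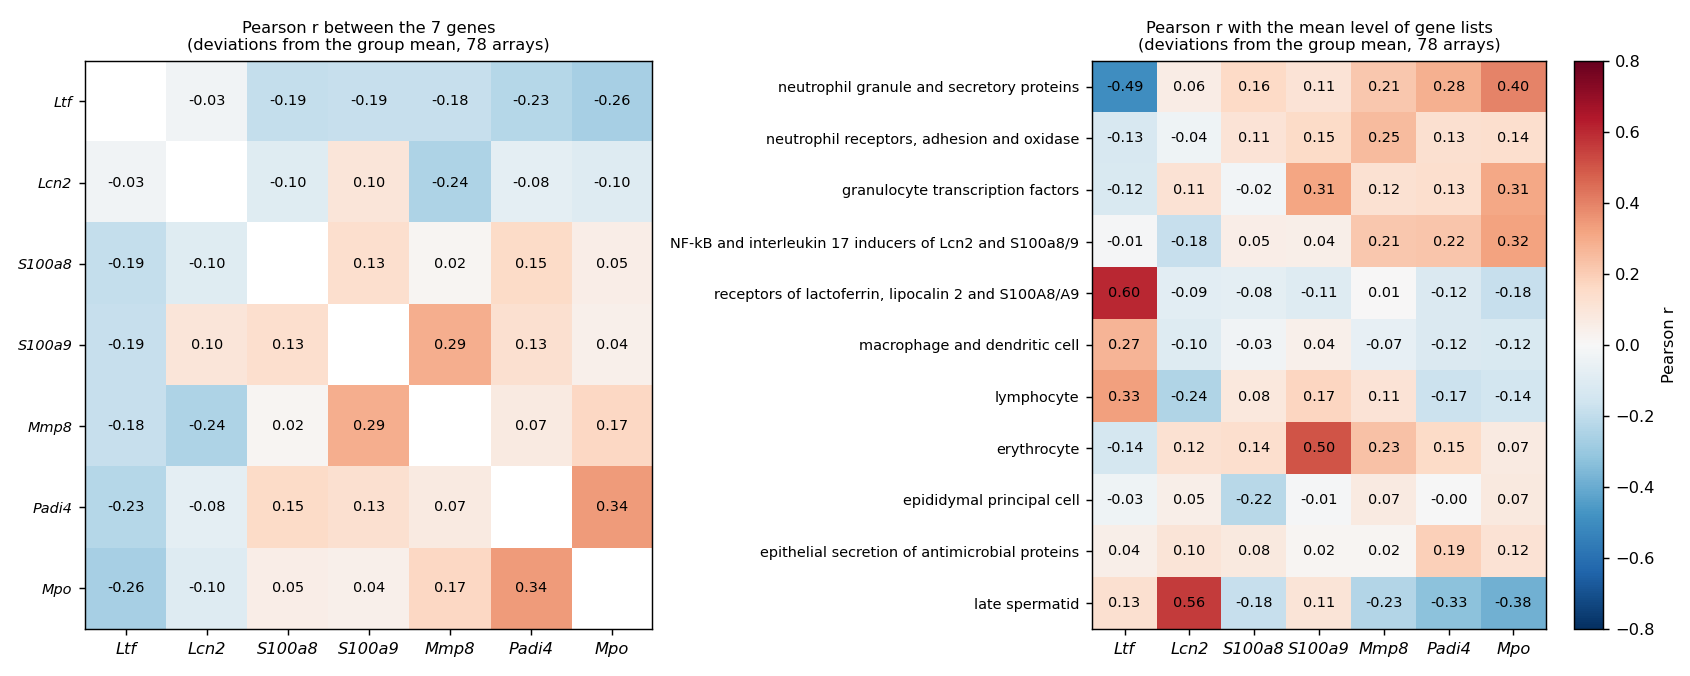
Pearson r of deviations from the group mean over 78 arrays, between the 7 genes (left) and between each gene and the mean level of 11 gene lists (right). Most cells of the left map lie near 0, with 0.34 for Padi4 and Mpo the highest, while the right map has its highest values at Ltf with the receptor list, which holds Lrp2, at Lcn2 with late spermatid genes and at S100a9 with erythrocyte genes.

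Other genes of neutrophils passed over time about as often as all probe sets in corn oil rats, of which 24.3% passed, while 13.5% passed in DBCP rats. Of 28 listed granule and secretory proteins 21 were on the array, and over time 2 rose and 3 fell in corn oil rats (median -0.11, against -0.04 over all probe sets). In DBCP rats 3 rose and 2 fell (median 0.04, against 0.01). Mmp9, the gelatinase of tertiary granules, rose in both treatments, by 0.39 ± 0.08 and 0.27 ± 0.08 (limma adjusted p = 0.00027 and 0.0137). The permeability-increasing protein gene Bpi fell by -0.62 ± 0.13 in DBCP rats (0.000526), as did the elastase gene Elane by -0.16 ± 0.05 (0.0201). In corn oil rats arginase, Arg1, fell by -0.17 ± 0.05 (0.0077) and S100a11 rose by 0.52 ± 0.12 (0.00133). Mmp9 and Arg1 are also made by macrophages.

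Of 30 listed neutrophil receptors, adhesion molecules and oxidase subunits 27 were on the array, with 4 up and 3 down over time in corn oil rats and 2 up and 1 down in DBCP rats, near the shares of all probe sets. Selplg, the ligand of P-selectin, rose in both (0.25 ± 0.07 and 0.24 ± 0.07, limma adjusted p = 0.00937 and 0.0216). The chemokine receptor Cxcr2 rose in DBCP rats (0.24 ± 0.07, 0.0153) and Ltb4r, a leukotriene receptor, fell in corn oil rats (-0.22 ± 0.06, 0.00482). Of 8 granulocyte transcription factors none passed in corn oil rats by limma's adjusted p (24.3% of probe sets did), and in DBCP rats Runx1 rose (0.12) and Cebpd fell (-0.10). Of 20 listed inducers of Lcn2 and the calprotectin genes through NF-kB and interleukin 17, 18 were on the array. Of these 2 rose in corn oil rats, near the 11.5% of all probe sets that rose there. They were Traf3ip2, an adaptor of the interleukin 17 receptor (0.24 ± 0.06, 0.00454), and Stat3 (0.23 ± 0.06, 0.00597). None passed in DBCP rats, where 13.5% of all probe sets did. Between DBCP and corn oil 0 genes of these 4 lists passed at either time, as for all probe sets.

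Of 9 listed receptors of lactoferrin, lipocalin 2 and S100A8/S100A9 on the array, 2 rose over time in corn oil rats, where 11.5% of probe sets rose, and 3 in DBCP rats, where 7.28% did. None fell, and 7 and 6 did not pass. Lrp2, megalin, which takes up lactoferrin and lipocalin 2, rose by 0.27 ± 0.09 and 0.28 ± 0.09 (limma adjusted p = 0.0154 and 0.0186). Emb, embigin, a receptor of S100A8/S100A9, rose by 0.78 ± 0.15 and 0.53 ± 0.15 (0.000118 and 0.0115), and Cd36 by 0.27 ± 0.08 in DBCP rats (0.0174).

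For likeness to Ltf within groups, 14499 genes were ranked by r over 78 arrays. The neutrophil genes were left out of this ranking, so they could not appear in it. Placed separately among 14505 genes, they had 59.6% (Mmp8) to 68.5% (Mpo) of genes above them in r with Ltf. The genes ranked highest were Atp6v0a1 (r = 0.907), a subunit of the vacuolar proton pump, Lrp2 (0.901) and B3galt2 (0.891), a galactosyltransferase. Next came Hspa5 (0.887), the chaperone of the endoplasmic reticulum, and Scd (0.887), a fatty acid desaturase. Without the 6 arrays of low weight these r lay between 0.869 and 0.897, and they were above 0.8 in each run of replicate numbers. Over time in corn oil rats all 5 rose, from 0.27 ± 0.09 for Lrp2 to 0.91 ± 0.17 for B3galt2 (limma adjusted p = 0.0154 and 7.55e-05). In DBCP rats 4 of the 5 rose, and Scd differed by 0.20 ± 0.14 (0.364). Ltf itself varied more than most: its SD within groups was 0.443, against a median of 0.19 over all probe sets.

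**Figure D4:**
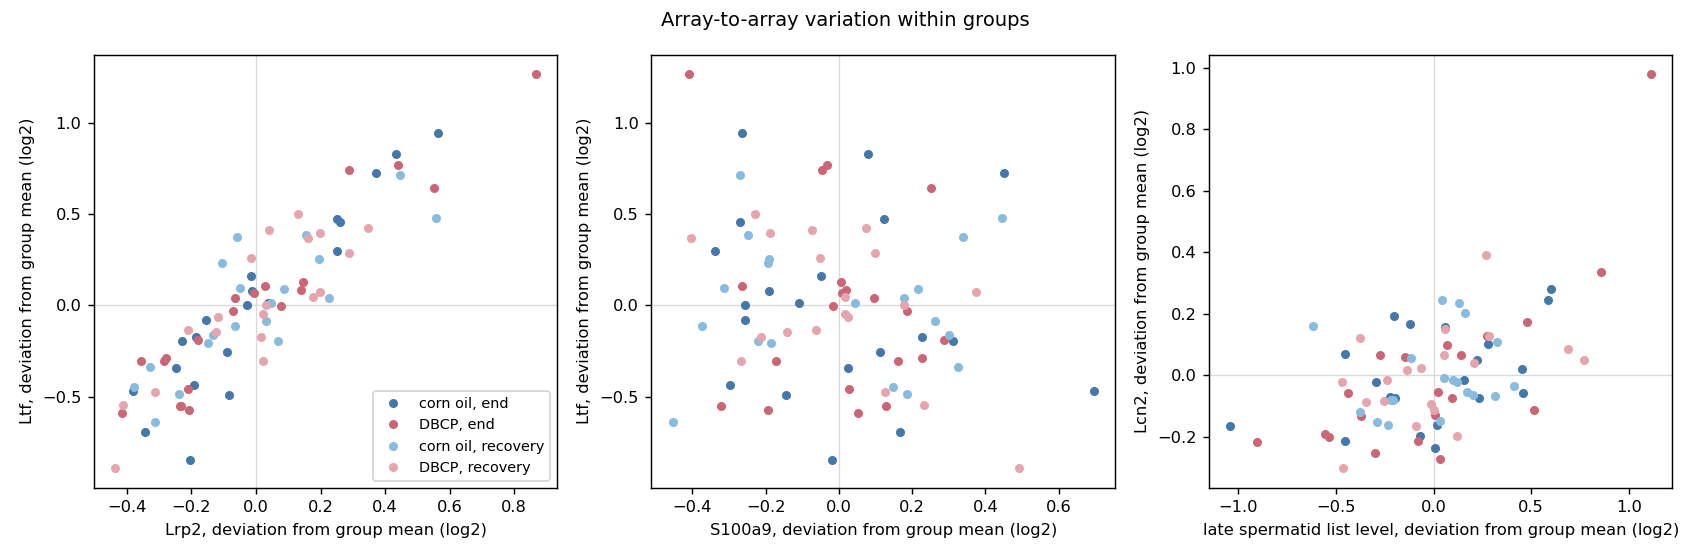
Deviations from the group mean on each of 78 arrays (log2), coloured by group, for Ltf against Lrp2 (left), Ltf against S100a9 (middle) and Lcn2 against the mean level of 18 late spermatid genes (right). Ltf follows Lrp2 closely (r = 0.901) and not S100a9 (r = -0.187), and the highest Lcn2 point, a DBCP array, is also the highest in late spermatid level.

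The genes most like Lcn2 were Pom121l2 (r = 0.778), Foxm1 (0.774), a cell cycle transcription factor, Spesp1 (0.766), a protein of the sperm head, Kdm4d (0.759), a histone demethylase, and Cdkn3 (0.756), a phosphatase of the cell cycle. Without the 6 arrays of low weight these r lay between 0.556 and 0.61. All 5 fell over time in DBCP rats, from -0.32 ± 0.06 (Foxm1) to -0.69 ± 0.14 (Cdkn3), and 4 of the 5 in corn oil rats, where Cdkn3 differed by -0.25 ± 0.14 (limma adjusted p = 0.184). The genes most like S100a9 were Slc4a1 (r = 0.533), the anion exchanger of red cells, Arhgap27 (0.525), the globin genes Hbb-b1 (0.509) and Hbb (0.508), and Fech (0.499), the last enzyme of heme synthesis. The next 5, named after their values were seen, were Cdc25b (0.498), Rbm38 (0.469), the neutrophil growth factor receptor Csf3r (0.467), the erythrocyte gene Alas2 (0.467) and Il1b (0.454). For S100a8 the highest r was 0.395, with Lgals2, a galectin, and Rnf135, Lgals12, Svs3a and Lrrc38 followed between 0.382 and 0.366. These likenesses are descriptions over arrays that share the same 4 groups.

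The mean levels of 11 gene lists were set beside the 7 genes, as 77 correlations within groups added after the data had been seen, of which 11 passed. Lcn2 followed the late spermatid level (r = 0.559, rho = 0.491, permutation test adjusted p = 0.000257), with r = 0.463 without the 2 farthest arrays and 0.444 without those of low weight. By group r was uneven, at 0.461 and 0.761 in corn oil and DBCP rats at the end of exposure, and 0.155 and 0.432 after recovery. In the same arrays the late spermatid genes fell over time, 11 of 18 in corn oil rats (median -0.43), against 12.8% of all probe sets. In DBCP rats 16 of 18 fell (median -0.81), against 6.19% of all probe sets. At the end of exposure 18 of 18 had a higher mean with DBCP (median 0.41), against 38% of all probe sets. None of the 18 passed there, as for all probe sets. The late spermatid level ran from 9.25 to 10.90 and 9.76 to 11.78 in corn oil and DBCP rats at the end of exposure, and from 9.27 to 10.30 and 9.40 to 10.64 after recovery. It moved with Lcn2 in each of these comparisons, and its part in the Lcn2 results was not tested. In such bulk samples fewer cells of a type and less RNA per cell cannot be told apart.

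Ltf ran against the level of the neutrophil granule list (r = -0.495, rho = -0.475, permutation test adjusted p = 0.000385), a correlation that lay below 0 in each of the 4 groups. On arrays 1 to 10 this r was -0.295 and on arrays 11 to 20 -0.52. The list correlations were run on the deposited values alone, not under quantile normalization or centring. The r of Ltf with the receptor list, 0.601, includes Lrp2, and that with lymphocyte genes was 0.328 (0.0294). Mpo, in contrast, had a positive r with the neutrophil granule level (r = 0.398, rho = 0.466, permutation test adjusted p = 0.00416). This r was 0.284 without the arrays of low weight, 0.244 on arrays 1 to 10 and 0.537 on arrays 11 to 20. By group it was uneven, at 0.15 and 0.511 in corn oil and DBCP rats at the end of exposure, and 0.176 and 0.662 after recovery. With the neutrophil granule level S100a8, S100a9, Mmp8 and Padi4 did not pass (r = 0.162, 0.107, 0.213 and 0.284). S100a9 followed erythrocyte genes (r = 0.504, rho = 0.524, adjusted p = 0.000257), whose part in its values was not tested. The other passing pairs were S100a9 and Mpo with granulocyte transcription factors (r = 0.313 and 0.311), Mpo with the inducers (0.324), and Padi4 and Mpo with the late spermatid level (-0.328 and -0.383). None of these 5 passed by Spearman's rho (adjusted p from 0.0539 to 0.203), and without the arrays of low weight r was 0.17 for Mpo with the inducers and -0.19 for Mpo with the late spermatid level. S100a8 and Mmp8 passed with none of the 11.

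Lists of other cell types are set beside the rise of Ltf here, against the 24.3% of probe sets that passed over time in corn oil rats and the 13.5% in DBCP rats. Of 14 macrophage and dendritic cell genes 6 rose in corn oil rats, and 7 rose and 1 fell in DBCP rats, with Cd74 up by 0.77 ± 0.10 and 0.79 ± 0.10 (limma adjusted p = 3.26e-08 and 2.41e-08). Of 12 lymphocyte genes 6 rose and 2 fell in corn oil rats, and 7 rose in DBCP rats. Of 8 erythrocyte genes 0 rose and 1 fell in corn oil rats, and none passed in DBCP rats. The macrophage level ran from 7.40 to 7.93 and 7.25 to 7.74 at the end of exposure in corn oil and DBCP rats, and from 7.50 to 8.10 and 7.42 to 8.17 after recovery. The lymphocyte level ran from 7.11 to 7.48 and 7.12 to 7.39, then from 7.23 to 7.75 and 7.25 to 7.61. Within groups Ltf gave r = 0.328 with the lymphocyte level, and its r with the macrophage level did not pass. Of 14 epithelial antimicrobial genes on the array 0 rose and 3 fell in corn oil rats, and 0 rose and 1 fell in DBCP rats. Of 24 epididymal principal cell genes 2 rose in each treatment, and 3 fell in corn oil rats and 1 in DBCP rats, near the shares of all probe sets. The part of these cells in the Ltf results was not tested.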

How the data were processed

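Expression was measured on 78 one-colour arrays of rat sperm RNA. The authors deposited 29214 probe sets as log2 values, and the submitters' processing notes name limma. Neither summarisation nor normalization is stated in the labels. Gene names came from the platform annotation, in which 15310 probe sets have 1 symbol. The deposited log2 values were fitted without further scaling by limma 3.58.1 in R 4.3.3, with a mean for each of 4 groups, 5 contrasts and Benjamini-Hochberg adjustment over all probe sets (threshold 0.05, two-sided). No floor or filter was set. The number of arrays limits the precision. Python 3.11.15 with numpy 2.4.6 and pandas 2.3.3 ran two-sided permutation tests with 100000 resamples.

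The members and gene lists were chosen with earlier results of these data known. Genes were named by rule: the 7 members, up to 3 passing genes of smallest p per list and contrast, and the 5 named genes other than members of highest r with Ltf, Lcn2, S100a8 and S100a9. For S100a9 the next 5 genes were named outside this rule. Alternatives were quantile normalization, median centring, a filter on dim probe sets, array weights, leaving out 6 arrays of weight under 0.5, a trended robust prior, the contrast's groups alone, blocks for replicate number and for runs of numbers, each run alone, 1 probe set per gene, and each array left out. The fit and the permutation tests were tested on simulated data.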

Additional observations from a re-analysis of the deposited data

How the results depend on the processing

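In every fit with 1 array left out the counts of passing genes were unchanged: 0 and 0 for DBCP against corn oil, 3 and 3 over time and 0 for the interaction. Under the other settings they were the same with 3 exceptions. On arrays 11 to 20 alone 0 passed over time in corn oil rats and 1 in DBCP rats, on arrays 1 to 10 alone 4 and 2, and among brighter probe sets 2 in DBCP rats. The 22 passing difference tests became 3 on arrays 11 to 20. The 1 passing correlation became 0 under quantile normalization, under centring, without the low-weight arrays and on arrays 11 to 20. On arrays 1 to 10 the count was 1, but for another pair, Mmp8 with S100a9 (r = 0.518, permutation test adjusted p = 0.0197). Padi4 with Mpo did not pass there (r = 0.17, 0.582). With the replicate block 4 passed, namely Ltf with Mpo (r = -0.427) and Padi4 (-0.368), Padi4 with Mpo (0.356) and Mmp8 with S100a9 (0.285). Same-numbered arrays deviated together little at the median (r between -0.08 and 0.06 for the 6 pairs of groups). Between corn oil and DBCP rats at the end of exposure their r ran from -0.49 to 0.57. A median near 0 cannot settle whether the numbers pair some samples. The replicate block left the counts of passing genes at 3 and 3 over time.

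Signs turned for differences that had not passed. At the end of exposure the DBCP difference in Ltf was -0.022 with quantile normalization, -0.05 with array weights, -0.081 without low-weight arrays and -0.015 on arrays 11 to 20. That in S100a8 was 0.044 (quantile), 0.008 (centring), 0.007 (weights) and 0.012 (arrays 11 to 20). After recovery S100a8 gave -0.026 (quantile), -0.01 (centring), -0.001 (replicate block) and -0.074 (11 to 20), Lcn2 0.02 and Padi4 0.005 (1 to 10), Ltf 0.079 and S100a9 -0.047 (11 to 20). Over time in corn oil rats S100a8 gave 0.004 (centring) and 0.058 (11 to 20), S100a9 -0.179 (1 to 10) and Padi4 0.064 (11 to 20). Padi4 gave 0.081 in DBCP rats (11 to 20). The interaction turned for S100a8 (-0.07, -0.018 and -0.086 with quantile, centring and 11 to 20), Ltf (0.094) and S100a9 (-0.017, both 11 to 20). With 1 array left out the ranges that crossed 0 were -0.054 to 0.063 for Ltf and -0.018 to 0.006 for S100a8 at the end of exposure, -0.024 to 0.015 for Lcn2 and -0.024 to 0.023 for S100a8 after recovery, -0.033 to 0.01 for Padi4 and -0.043 to 0.005 for S100a8 over time in DBCP rats, and -0.016 to 0.031 for the S100a8 interaction. The cause was not tested.

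No value came from other probe sets of a gene, because each gene has 1, and a filter to brighter probe sets removed Mmp8, S100a8 and S100a9. Low signal limits what these 3 can show.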
